A study of Mus musculus with 3 samples.

Results

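The cytosolic ribosome of mammals is built from ribosomal RNA and from the proteins of its large and small subunits, which bear the gene symbols Rpl and Rps. The set described here holds the probe sets of 1 array type whose single annotated gene symbol begins with Rpl or Rps and continues with a digit or the letter p, without the Rps6k kinases. This took 50 of the 18193 genes that have a probe set with a single symbol, and 105 of the 45037 probe sets that are not array controls. A further 110 probe sets with several annotated symbols, at least 1 of them ribosomal, were left out. Of the 50 genes, 22 encode proteins of the large subunit (42 probe sets) and 20 encode proteins of the small subunit (51 probe sets). There were 5 genes of paralogues, which are close copies of ribosomal protein genes (7 probe sets). The remaining 3 symbols (5 probe sets) matched by name only: Rpl7l1, a protein related to Rpl7, Rps19bp1, which binds the Rps19 protein, and Rps15a-ps6, a pseudogene. The 50 genes lie on 17 mouse chromosomes, with at most 7 on any of them.

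RNA was measured in the dental papilla of ICR mice, the mesenchyme inside the tooth germ from which the dental pulp and the dentine-forming odontoblasts arise. The papillae were separated with enzymes from the first molar germs of the lower jaw at embryonic day 16 (E16), embryonic day 18 (E18) and postnatal day 3 (P3). Each stage is 1 RNA pool from over 20 papillae on 1 array, so no spread between replicates exists, no test can be made, and the precision of each value is limited by the count of arrays. All 3 pools share the strain, the extraction and a 2-cycle amplification and biotin labelling of the RNA, and they differ by stage. In tissue pools such as these, fewer cells of a type and less RNA per cell cannot be told apart.

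Ribosomal protein genes are transcribed in every growing cell, and their mRNAs usually begin with a C followed by a stretch of C and T bases, the terminal oligopyrimidine tract. Through this tract the mTOR pathway controls how much of the mRNA is translated, so the amount of the mRNA and the amount of protein made from it can part ways. Ribosomal RNA, by contrast, is made in the nucleolus by RNA polymerase I, with the help of ribosome biogenesis factors that respond to growth signals such as Myc. Mammalian genomes also carry many processed pseudogenes of ribosomal proteins, copies of the mRNA that were inserted into the genome, and these make it hard to design probes for 1 gene alone.

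The starts of some of the genes named below are shown as the 30 bases around an annotated transcription start, from RefSeq on GRCm38.p6, on the gene's own strand. Capitals mark a run of at least 5 C or T bases that begins with C within 3 bases of that start. In Rpl27a the run goes on past the end of the window shown. Rps24 has a second annotated start, at chr14:24490738-24490767, that has no such run and is not shown. Rpl27, Rpl37a, Rpl22, Rpl11, Rps26 and Rps7, also named below, have no such run and are not shown, so the run is over-represented among the starts shown.
Rpl27a (large subunit), chr7:109519180-109519209, plus strand: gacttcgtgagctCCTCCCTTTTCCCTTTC
Rpl35 (large subunit), chr2:39005117-39005146, minus strand: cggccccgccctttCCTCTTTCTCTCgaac
Rpl12 (large subunit), chr2:32961697-32961726, plus strand: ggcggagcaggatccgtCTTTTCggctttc
Rpl41 (large subunit), chr10:128549154-128549183, minus strand: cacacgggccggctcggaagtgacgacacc
Rps10 (small subunit), chr17:27635230-27635259, minus strand: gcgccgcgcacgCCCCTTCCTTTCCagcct
Rps24 (small subunit), chr14:24490663-24490692, plus strand: cccgcgctggggtCCTTCCTTgcgcgttga
Rps6 (small subunit), chr4:86857353-86857382, minus strand: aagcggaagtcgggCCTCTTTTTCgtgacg

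The RefSeq promoter table held 43 of the 50 genes, and 16 of these (37.2%) had such a run at an annotated start, against 3651 of 27025 genes of the table (13.5%). The sequence CTTCCG, searched on both strands from 250 bases before to 50 bases after the start and free to overlap the run, was in 30 of the 43 (69.8%), against 5075 of the 27025 (18.8%). Rpl41 has no run at its annotated start. A match is a description of these letters, and a missing match says only that they are not in this window.

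The deposited values are ratios: in 40754 of the 45101 probe sets the 3 values had been divided by the middle one, so that the middle stage stands at 1. Ratios of 1 probe set can be set against each other between stages, and those of 2 probe sets cannot. A level was recovered from the whole steps in which the ratios run. The pooled median of the recovered levels, 82.0, served as a floor for low values before the log2 was taken. Quantile normalization, given below as another scaling, ranks the recovered levels of different probe sets. Those of bright probe sets can be too low or a chance match, so its values are a rough check. Of the 105 ribosomal probe sets, 87 reached the floor on each of the 3 arrays and 10 were below it on all 3. A probe set entered a comparison when at least 1 of its 2 arrays reached the floor. A value was called higher or lower when it passed 2-fold, a size that describes these 2 arrays and is not a test.

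The names of the probe sets carry a letter that records how specific the probes are by design. Names ending in _x_at hold probes that match or nearly match other transcripts, names ending in _s_at hold probes shared by several genes, names ending in _a_at recognise alternative transcripts of 1 gene, and names ending in _at with no further letter were designed as unique. Among the ribosomal probe sets, 43 ended in _s_at or _x_at (40 in _x_at and 3 in _s_at), which is 41.0% of them, against 10.1% of all probe sets. The 62 others were 28 ending in _a_at (26.7%, against 9.83% of all) and 34 with no letter. The prescribed split sets _s_at and _x_at against the rest. Because the _a_at members turned out closer to the _x_at members, they are also given apart, a division chosen after their values were seen.

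On the whole array, the 18 bacterial and phage spike-in probe sets had a median ratio of 2.17 for E18 over E16, 0.451 for P3 over E18 and 1.04 for P3 over E16, so the array's own controls were higher on the E18 array. The 3' over 5' ratio of the actin control was 3.87 times as high at E18 as at E16 and 2.46 times as high at P3 as at E16, while that of Gapdh was 1.42 and 0.355 times as high. The 3 probe sets of 18S ribosomal RNA, the RNA of the small subunit, were 1.05, 1.70 and 3.88 times as high at E18 as at E16, and 1.81, 1.59 and 10.8 times as high at P3 as at E16. All 11 listed papilla mesenchyme genes found in the table (Msx1, Pax9, Lhx6 and others) reached the floor at each stage. Odontoblast genes (Dspp, Dmp1, Phex, Col1a1, Alpl) numbered 1, 5 and 5 of 5 above the floor at E16, E18 and P3, and their summed recovered levels were 421, 8668 and 32158. Genes of the tooth epithelium were also measured, 6, 7 and 7 of 7 with sums of 5404, 16142 and 10199, and macrophage genes numbered 3, 5 and 6 of 6. Genes of dividing cells were above the floor in 5 of 5 at each stage with sums of 10906, 9241 and 3036. Erythroid genes numbered 3, 2 and 1 of 3. Of 3 endothelial genes, 2 reached the floor at each stage, with sums of 2787, 1248 and 1100. The third, Pecam1, an endothelial surface protein, never reached it. These sums add recovered levels of different probe sets, each of which can be too low or a chance match, so their sizes are rough. The part of these differences in the ribosomal values was not tested.

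At E18 against E16, 34 of the 68 measured ribosomal protein probe sets with a letter in their name passed 2-fold upward and 0 downward (31 and 0 under quantile normalization), and those without a letter were spread on both sides of 0. Over all probe sets, 12.3% of those ending in _s_at or _x_at and 9.68% of those ending in _a_at were higher, and 6.19% and 6.15% lower. Rps10, Rpl37a, Rps18, Rps24 and Rpl41 led the _x_at members, at 3.21-fold to 6.24-fold higher, and Rpl27a led the members with no letter at 16.7-fold higher. The subunits had similar medians: the median log2 difference was 0.93 over 40 probe sets of the large subunit and 0.84 over 44 of the small subunit. Of the probe sets ending in _s_at or _x_at, 24 of 41 passed 2-fold upward (58.5%) and 0 were lower, against 12.3% higher and 6.19% lower over all probe sets of these endings. Their median log2 difference was 1.08, against 0.16 over all.

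Of the other ribosomal probe sets, 14 of 53 passed 2-fold upward at E18 and 1 was lower, against 6.98% higher and 8.2% lower over all probe sets of that class. Their median log2 difference was 0.74, against -0.06 over all. The class was not uniform. Members ending in _a_at had 10 of 27 higher, 0 lower and a median of 0.89, against 9.68% higher and 6.15% lower over all _a_at probe sets. By comparison, members with no letter had 4 of 26 higher, 1 lower and a median of 0.22. Over all no-letter probe sets 6.57% were higher and 8.52% lower, with a median of -0.08. Bright probe sets of other genes, those at a recovered level of 500 or more on all 3 arrays, had medians of 0.34 for _s_at and _x_at and -0.04 for no letter.

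**Figure D1:**
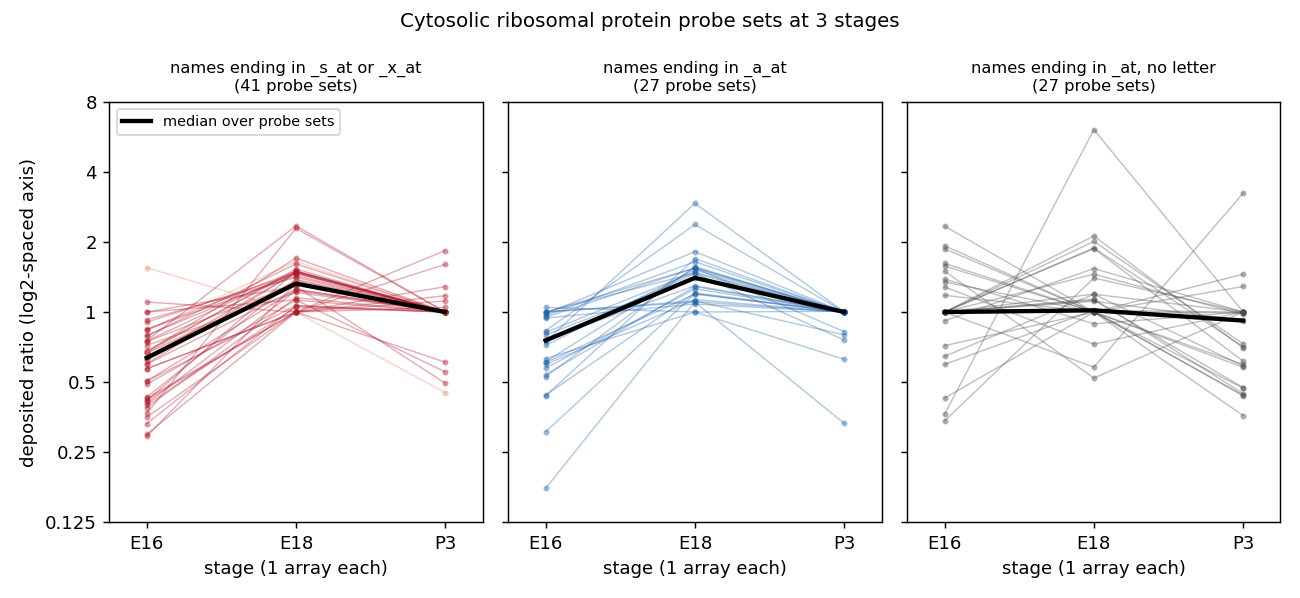
Deposited ratios (log2-spaced axis) of the ribosomal protein probe sets that reached the floor on at least 1 array, at E16, E18 and P3, 1 line per probe set and a thick line at the median. The medians are 0.636, 1.32 and 1 for the 41 probe sets ending in _s_at or _x_at. They are 0.755, 1.40 and 1 for the 27 ending in _a_at, and 1, 1.02 and 0.919 for the 27 with no letter. Most probe sets were divided by their own middle value, so a median of 1 comes from that division. The step down after E18 in the first panel is not kept under quantile normalization.

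The order of the 3 stages was counted in the same classes. Among the 41 members ending in _s_at or _x_at that reached the floor, E16 was the lowest stage in 37 (90.2%) and E18 the highest in 33 (80.5%), against 32.1% and 47.2% over all probe sets of these endings. Under quantile normalization E16 was again the lowest in 37 of 41, and E18 was the highest in 17 and P3 in 21. Among the 27 ending in _a_at, E16 was lowest in 22 (81.5%) and E18 highest in 25 (92.6%), against 29.4% and 41.2% over all, and E18 was highest in 17 under quantile normalization. Among the 27 with no letter, E18 was highest in 14 (51.9%, and 12 under quantile normalization) and P3 lowest in 16 (59.3%), against 30.4% and 40.9% over all. E16 was lowest in 7 of these (25.9%) and highest in 10 (37.0%), near the 29.0% and 42.3% over all.

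The large-subunit protein Rpl27a gave the widest difference of any member. Its probe set 1437729_at had ratios of 0.364, 6.08 and 1 at E16, E18 and P3, which made E18 16.7-fold higher than E16. The E18 array stands alone here, since P3 was 2.75-fold above E16 and 6.08-fold lower than E18. The gene's other probe set, 1419799_at, was below the floor on all 3 arrays, so that the value rests on 1 probe set. Rpl27, a different protein of the same subunit despite its name, was measured 3 times. Its 1448217_a_at had ratios of 0.748, 2.93 and 1, 3.92-fold higher at E18 than at E16. Its 1453096_x_at had 0.755, 2.35 and 1, 3.11-fold higher. Its no-letter 1416099_at had 1, 1.45 and 0.976, 1.45-fold higher, so all 3 were highest at E18 but by unequal amounts. Rpl11, which also binds Mdm2 when ribosome assembly is disturbed, had ratios of 0.831, 2.38 and 1 on 1417615_a_at, 2.86-fold higher at E18. Rpl37a had 0.292, 1.33 and 1 on 1460543_x_at, 4.53-fold higher, while its other 2 probe sets were below the floor at E16 and at least 1.44-fold and 1.45-fold higher.

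Rpl35, a protein of the large subunit that lies near the exit of the peptide tunnel, shows how close probe sets of 1 gene can come. Its 5 measured probe sets, 4 ending in _x_at and 1 in _a_at, had ratios of 0.607 to 0.673 at E16, 1.19 to 1.71 at E18 and 1 at P3. E18 was 1.97-fold to 2.53-fold higher than E16 on all 5, and P3 was 1.49-fold to 1.65-fold higher than E16. Its no-letter probe set 1454833_at was below the floor on all arrays. Rplp0, the stalk protein often used as a reference gene, had ratios of 0.917, 1.54 and 1 on the no-letter 1419441_at and was 1.68-fold higher at E18 than at E16, under the 2-fold mark.

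In the small subunit, Rps10 had 5 probe sets that moved together and 1 that did not. The 5 with a letter had ratios of 0.306 to 0.440 at E16, 1.20 to 2.29 at E18 and 1 at P3, and E18 was 2.75-fold to 6.24-fold higher than E16. The no-letter 1436384_at had 1.35, 1 and 0.992 and reached the floor at E16 alone, where it was the highest of its 3 values. Rps26 had 0.528, 1.57 and 1 on 1415876_a_at, 2.97-fold higher at E18. Rps18, another common reference gene, had 0.416, 1.5 and 1 on 1448739_x_at, 3.60-fold higher. Its 1455572_x_at had 0.794, 1.47 and 1, 1.86-fold higher, its 1435712_a_at had 0.595, 1.13 and 1, 1.90-fold higher, and its other 3 probe sets were below the floor. Rps14 was 3.20-fold and 2.30-fold higher on its 2 _x_at probe sets. Rpl32, a reference gene of the large subunit, had no probe set with a single symbol.

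The lower values at E18 were few. The no-letter Rps9 probe set 1426958_at had ratios of 2.34, 1 and 0.359, was below the floor at E18 and P3, and E18 was lower than E16 by at least 2.23-fold. Rps9 also had 0.671, 1.35 and 1 on 1433689_s_at, 2.02-fold higher at E18, so its probe sets pointed in opposite directions. Rpl12, which sits at the base of the ribosomal stalk, had 1.87, 1 and 0.471 on its only probe set, 1435655_at, and was 1.87-fold lower at E18. Rps6, the substrate of the S6 kinases, had 1.62, 1 and 0.595 on 1416142_at and was 1.62-fold lower, while its second probe set, 1453466_at, was below the floor at E16 and at least 1.46-fold higher. Rps24 was 1.93-fold lower on the no-letter 1455195_at, and Rpl22 was 1.55-fold lower on 1448398_s_at, whose ratios follow below. The lower values came mostly from no-letter names. The lower quartile of the log2 difference was -0.54 over the 26 no-letter members and 0.77 over the 68 lettered ones.

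**Figure D2:**
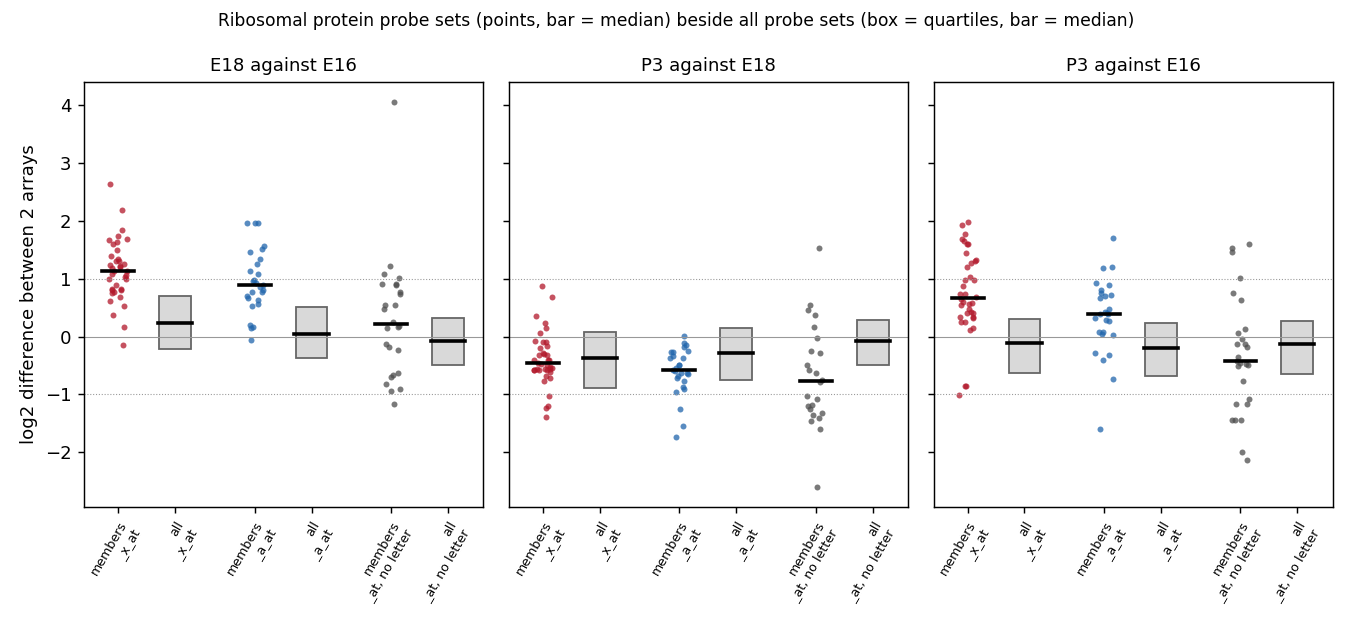
log2 differences of the measured ribosomal protein probe sets (points, bar at the median) beside all probe sets of the same name ending (box from lower to upper quartile, bar at the median), for the 3 pairs of arrays; dotted lines mark 2-fold, and the 3 members ending in _s_at are not drawn. At E18 against E16 the medians of the members are 1.14 (_x_at), 0.89 (_a_at) and 0.22 (no letter); at P3 against E18 that of _x_at is -0.46 and turns to 0.02 under quantile normalization.

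At P3 against E18, ribosomal protein probe sets of all endings had medians below 0 as deposited, a direction that _s_at and _x_at members lost under quantile normalization, and the no-letter members had the lowest median. Rpl27a, Rpl13a, Rps19bp1, Rpl27, Rps25 and Rpl7l1 led the lower values, at 2.65-fold to 6.08-fold lower, of which Rps19bp1 and Rpl7l1 matched by name only. Among members with no letter, 11 of 24 passed 2-fold downward (45.8%) and 1 upward, and the median log2 difference was -0.77. Over all no-letter probe sets 8.36% were lower and 3.84% higher, with a median of -0.08. The 11 hold 3 of the 4 measured probe sets that matched by name only, whose median was -1.22. Large-subunit proteins had 4 of 9 lower (median -0.62) and small-subunit proteins 3 of 9 (median -0.49). Bright no-letter probe sets of other genes had 11.1% lower and a median of -0.28. Under quantile normalization the no-letter members kept a median of -0.59, with 6 of 24 lower.

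The probe sets ending in _s_at or _x_at behaved otherwise in this pair. Of 41, 5 passed 2-fold downward and 0 upward, a share of lower calls under the 19% lower, with 3.61% higher, of all probe sets of these endings. Their median was -0.47, against -0.36 over all, and under quantile normalization it turned to 0.0087. Bright _s_at and _x_at probe sets of other genes were lower still, with a median of -0.56 and 24.5% lower. The other ribosomal probe sets together had 14 of 51 lower and 1 higher, against 9.25% and 3.76% over all, with a median of -0.62; under quantile normalization 8 were lower and the median was -0.15. Members ending in _a_at had 3 of 27 lower and 0 higher, against 15.2% and 3.21% over all, and a median of -0.57 that became -0.09, beside -0.54 for bright _a_at probe sets of other genes. Of the 92 members measured in this pair, 24 changed sign under that normalization, and 0 of those 24 were 2-fold apart as deposited.

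The scaling also moved the array as a whole. The median log2 difference of all measured probe sets was -0.13 for P3 against E18 and -0.15 for P3 against E16 as deposited, and 0.01 in both under quantile normalization. As deposited, 930 probe sets passed 2-fold upward and 2604 downward at P3 against E18, and under quantile normalization the numbers were 1454 and 1692. For P3 against E16 they were 1514 and 3613 as deposited, and 2269 and 2487 under quantile normalization. For E18 against E16 the median was -0.04 as deposited and -0.02 under quantile normalization.

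Among the members lower at P3 than at E18, Rpl13a, which is also known as part of a complex that silences translation of inflammatory mRNAs, had ratios of 1, 1.10 and 0.332 on 1433928_a_at, and P3 was 3.32-fold lower than E18. Its 1455001_x_at had 1, 1.13 and 0.553, 2.04-fold lower. Its other 2 probe sets had P3 at 1 and were 1.82-fold and 1.46-fold lower, so all 4 pointed down by differing amounts. Rps25, a small-subunit protein used by viral internal ribosome entry sites, had 1, 2.01 and 0.729 on 1430978_at and was 2.76-fold lower. Rps9 was 2.61-fold lower on 1434624_x_at, with ratios of 1, 1.29 and 0.495. Rpl22 was 2.22-fold lower on 1448398_s_at, with 1.55, 1 and 0.451, but 1.65-fold lower on 1453118_s_at, with 0.833, 1.65 and 1.

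Few members were higher at P3 than at E18. Rps3, a protein at the mRNA entry of the small subunit, had ratios of 1, 0.580 and 3.24 on the no-letter 1447563_at and was higher than E18 by at least 2.89-fold, with E16 and E18 below the floor. Its no-letter 1455600_at had 1, 1.14 and 0.446 and was 2.55-fold lower, and its 1435151_a_at had 1, 1.47 and 0.758 and was 1.94-fold lower. The 3 probe sets of Rps3 therefore did not agree in direction. By gene medians, Rpl39l, Rps15 and Rpl39 were the highest among the other class, at 1.29-fold, 1.21-fold and 1.12-fold.

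Between P3 and E16, ribosomal protein probe sets ending in _s_at or _x_at had a median above 0, and the no-letter members one below 0; most members of either kind did not pass 2-fold as deposited. Rps24, Rpl7, Rpl37a and Rps7 led the higher values of the first class at 3.16-fold to 3.94-fold. Rps24, Rpl12, Rpl13a, Rpl7l1, Rps6 and Rpl41 led the lower values of the other class at 2.70-fold to 4.38-fold, and Rpl7l1 matched by name only. Each class also had members on the other side. Rps10, Rpl39l, Rps3 and Rpl27a led the higher values of the other class at 2.27-fold to 3.27-fold, the Rps3 value being a lower bound. In the first class Rpl22 was 3.44-fold lower on 1448398_s_at and Rps9 2.02-fold lower on 1434624_x_at. Members ending in _s_at or _x_at had 13 of 41 past 2-fold upward and 2 downward, against 7.21% and 15.9% over all probe sets of these endings, with medians of 0.59 and -0.17. Under quantile normalization 21 of the 41 were higher and 1 lower, with a median of 1.0. The other members had 7 of 54 higher and 9 lower, against 5.86% and 14.2%, with medians of 0.07 and -0.14. Under quantile normalization the balance turned to 15 higher and 7 lower, with a median of 0.39.

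Members with no letter had 4 of 27 higher and 8 lower at P3 than at E16, against 5.86% and 14% over all no-letter probe sets, with a median of -0.41 against -0.14, and 6 higher and 6 lower with a median of -0.17 under quantile normalization. Members ending in _a_at had 3 of 27 higher and 1 lower, against 5.88% and 15.1%, with a median of 0.39, and 9 higher and 1 lower with a median of 0.78 under quantile normalization. By subunit, 10 of 21 _s_at or _x_at probe sets of the small subunit were higher, and 3 of 18 of the large subunit, with medians of 0.69 and 0.57, a difference that was not tested. Of all probe sets of these endings 7.21% were higher. Over all name endings the medians were 0.41 for the small subunit (15 of 45 higher, 5 lower) and 0.40 for the large subunit (4 of 40 higher, 5 lower), against 6.03% higher and 14.4% lower over all probe sets. Under quantile normalization the small subunit had 19 higher and 3 lower and the large subunit 13 higher and 4 lower, with medians of 0.78 and 0.75.

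Rps24, a small-subunit protein that is mutated in some patients with Diamond-Blackfan anaemia, was the clearest case of disagreement within a gene. The no-letter 1455195_at had ratios of 1.93, 1 and 0.439, and P3 was 4.38-fold lower than E16. The no-letter 1436500_at had 1.28, 0.728 and 1, 1.28-fold lower. The 4 _x_at probe sets had ratios of 0.298 to 0.570 at E16, 1 to 1.05 at E18 and 1 to 1.84 at P3, and P3 was 2.50-fold to 3.94-fold higher than E16. The fold changes of P3 over E16 spanned 17.3-fold among the 6 probe sets of this gene, with both no-letter probe sets below 1 and all 4 _x_at probe sets above it.

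Rpl41, the smallest protein of the ribosome, divided less cleanly. Its no-letter 1433530_at had 1.18, 1 and 0.437 and was 2.70-fold lower at P3. Its 1454639_x_at had 1.10, 1 and 0.609 and was 1.81-fold lower. Its other 2 _x_at probe sets had 0.332, 1.06 and 1 and 0.505, 1.07 and 1, and were 3.02-fold and 1.98-fold higher, so the _x_at probe sets themselves pointed both ways. In Rps10 the 5 probe sets with a letter were 2.27-fold to 3.27-fold higher at P3, and the no-letter one was at least 1.09-fold lower. In Rpl22 the no-letter 1416603_at, with 0.646, 1.19 and 1, was 1.55-fold higher, while of the 2 _s_at probe sets 1448398_s_at was 3.44-fold lower and 1453118_s_at 1.20-fold higher.

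Other genes were led by a single probe set. Rpl7 had 0.418, 1 and 1.60 on 1426163_x_at and was 3.83-fold higher at P3, and its other 2 probe sets were 1.47-fold and 1.63-fold higher. Rps7 had 0.353, 1 and 1.12 on 1435593_x_at, 3.16-fold higher, and 0.761, 1.30 and 1 on 1419364_a_at, 1.31-fold higher. Rpl12 was 3.96-fold lower and Rps6 2.72-fold lower at P3 on the no-letter probe sets whose ratios are given above, both lower at each later stage. Rpl14 had 1, 1.12 and 0.474 on 1422128_at, 2.11-fold lower. By contrast, the no-letter Rps15 probe set 1416089_at had 0.717, 1 and 1.45 and was 2.03-fold higher.

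**Figure D3:**
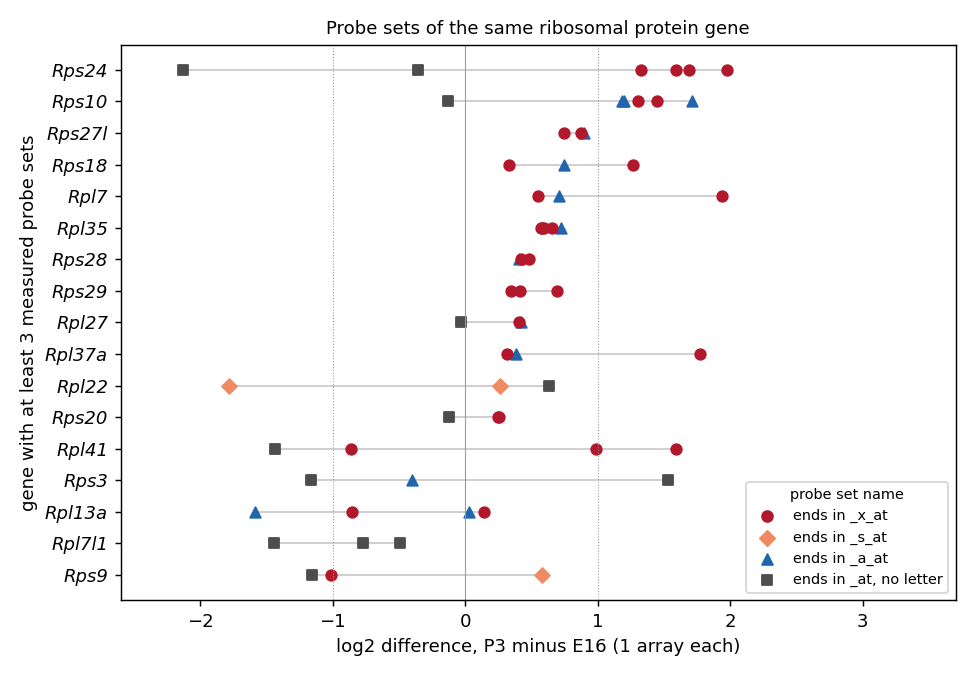
log2 difference of P3 minus E16 for each measured probe set of the 17 genes with at least 3 measured probe sets, marked by the ending of the probe set name; dotted lines mark 2-fold. Rps24 runs from -2.13 (no letter) to 1.98 (_x_at), and the 5 probe sets of Rpl35 lie between 0.57 and 0.72.

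The classes were also compared inside genes, which takes the gene itself out of the comparison. At E18 against E16, 15 genes had measured probe sets of both classes, and the median of _s_at and _x_at minus that of the others was above 0 in 10 of them, with a median of 0.42 log2 units, which turned to -0.033 with the brightest probe set of each class and fell to 0.21 with no floor. Over all 1714 such genes of the array it was above 0 in 63.2%, with a median of 0.21. At P3 against E18 it was above 0 in 7 of 14 genes (median 0.03), against 40.7% of 1694 genes over the array (median -0.15). The median of the 14 was 0.15 with the brightest probe set and 0.32 with no floor. For P3 and E16 the within-gene difference was above 0 in 12 of 15 genes (median 0.37, and 0.11 with the brightest probe set). Over the array it was above 0 in 53.9% of 1699 genes, with a median of 0.07.

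Setting all lettered probe sets against the no-letter ones gave a wider gap at E18 against E16. That grouping was chosen after the _a_at values had been seen, which can itself widen the gap, so it is no separate support. In 8 of 9 genes the lettered probe sets were the higher, with a median difference of 1.26 log2 units, against 64.0% of 2286 genes and a median of 0.24 over the array. The exception was Rpl22, at -0.71. Rps24, Rps10, Rps9 and Rpl41 had the widest gaps, at 2.19, 2.09, 1.85 and 1.32. In Rps10 and Rps9 the no-letter probe set reached the floor at E16 alone, so these gaps rest on weak signal and floored values. Between P3 and E18 the lettered probe sets were the higher in 2 of 7 genes, against 37.6% of 2261 genes over the array. The median was -0.53 against -0.20 over all, although the no-letter members as a class had the lower median in that pair. For P3 and E16 the lettered probe sets were higher in 6 of 9 genes, against 52.5% of 2289 genes, with medians of 0.45 and 0.04. The SD between probe sets of 1 gene was 0.73 log2 units for the ribosomal genes and 0.63 for all genes at E18 against E16, and 0.89 and 0.63 at P3 against E16.

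With 1 value per gene, the median of its measured probe sets, 19 of 47 ribosomal genes passed 2-fold upward at E18 and 0 downward, against 6.11% and 5.88% of the 12055 genes of the array. The median over genes was 0.82, against -0.05. Genes with the C or T run at their start had a median of 0.78 (16 genes), and those without it 0.81 (25 genes). At P3 against E18, 0 of 46 genes were higher and 9 lower, against 3.25% and 8.77%, with a median of -0.57 against -0.12. Of the lower genes, 5 were of the large subunit and 1 of the small, and the rest were a paralogue and symbols matched by name only. Under quantile normalization 0 were higher and 4 lower, with a median of -0.09. Between P3 and E16, 6 of 47 were higher and 3 lower, against 5.39% and 12.4%, with a median of 0.27 against -0.16, and 14 higher and 1 lower with a median of 0.67 under quantile normalization. As deposited the genes with and without the run had 0.34 and 0.27. The ribosomal probe sets with several symbols, which the selection left out, had 40 of 101 higher and 1 lower at E18 against E16 (median 0.78), against 7.65% and 7.95% over all probe sets.

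The paralogues did not form a single group. Rpl39l, whose product replaces Rpl39 in ribosomes of the male germ line, had ratios of 0.427, 1 and 1.29 on the no-letter 1423327_at, and P3 was 3.02-fold higher than E16. Rpl39 itself had 1.38, 0.890 and 1 on 1423032_at and was 1.38-fold lower, so the pair differed in direction. Rpl22l1, the paralogue of Rpl22, had 0.943, 1.08 and 1, a spread of 1.15-fold. Rps27l, a target of p53, had 0.538 to 0.597 at E16 on 3 probe sets and was 1.68-fold to 1.86-fold higher at P3. Rps4l had 1, 1.87 and 0.615 and was lower than E18 by at least 2.5-fold at P3. Rpl3l, the paralogue of Rpl3 in heart and skeletal muscle, was below the floor at every stage.

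The 2 measured symbols that matched by name only were lower at P3 than at E18. Rpl7l1 had 3 no-letter probe sets, which were 2.65-fold, 2.03-fold and 1.73-fold lower. Its 1426386_at had ratios of 1, 1.88 and 0.710. Rps19bp1 had 1, 2.12 and 0.701 on 1455174_at and was 3.03-fold lower at P3 than at E18. Rps15a-ps6, the pseudogene, was below the floor on all arrays.

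Other genes of protein synthesis were followed from 4 lists, beside the ribosomal probe sets, whose median at E18 against E16 over all 94 measured was 0.89 with 38 higher (40.4%) and 1 lower, against 7.65% and 7.95% over all probe sets. Genes of these lists are mostly given on their most extreme probe set, and other probe sets of the same gene can differ. Elongation factors and other mRNAs with a terminal oligopyrimidine tract had a median of 0.59 at E18 against E16, with 4 of 29 probe sets higher and 1 lower. Split by name, the 20 lettered probe sets of that list had a median of 0.69, against 1.0 for the 68 lettered ribosomal ones. The 9 with no letter had 0.40, above the 0.22 of the 26 ribosomal probe sets with no letter. The lettered probe sets of the initiation and biogenesis lists had medians of 0.44 (23 probe sets) and 0.14 (20 probe sets). Naca, a subunit of the complex that meets nascent chains at the ribosome, led the elongation and oligopyrimidine-tract list. It had ratios of 0.238, 1.21 and 1 on 1448430_a_at and 0.271, 1.29 and 1 on 1416669_s_at. Eef2, the translocation factor, had 1.74, 0.874 and 1 on 1424736_at and lay on the other side, as did Hnrnpa1, an RNA-binding protein, with 2.20, 1 and 0.475 on 1455305_x_at. Hnrnpa1 also had 1, 1.20 and 0.385 on 1436549_a_at. At P3 against E18 the list had a median of -0.43 that became -0.01 under quantile normalization, with Vim, the mesenchymal intermediate filament, at the top (0.758, 1 and 2.10 on 1450641_at) and Eef1d, an elongation factor subunit, at the bottom (1, 2.20 and 0.401 on 1439439_x_at). Between P3 and E16 its median was 0.11, and 0.46 under quantile normalization. As deposited, 5 of 28 were higher and 3 lower, against 6.03% and 14.4% over all probe sets.

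Ribosome biogenesis factors and subunits of RNA polymerase I had other values than the ribosomal proteins. At E18 against E16 their median was -0.04, with 5 of 62 probe sets higher and 4 lower, against 7.65% and 7.95% of all probe sets. At P3 against E18 0 of 63 were higher and 21 lower, against 3.74% and 10.5% of all probe sets, with a median of -0.83. Between P3 and E16 1 of 61 was higher and 26 lower, against 6.03% and 14.4%, with a median of -0.87. Under quantile normalization the medians of these pairs were -0.61 and -0.64.

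Fbl, the methyltransferase of the nucleolus, had ratios of 1.06, 1 and 0.218 on 1416685_s_at. Rrs1, needed for the large subunit, had 4.24, 1 and 0.525 on 1416998_at, and Tsr1, needed for the small subunit, had 2.22, 1 and 0.418 on 1433502_s_at. Polr1c, a subunit shared by RNA polymerases I and III, had 1, 1.65 and 0.243 on 1449648_s_at. The highest at P3 against E16 was Nop10, a part of the pseudouridylation complex, with 0.439, 1.13 and 1 on 1423211_at. Ebna1bp2, a factor of the large subunit, was the highest at E18 against E16 with 0.555, 1.53 and 1 on 1437512_x_at.

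**Figure D4:**
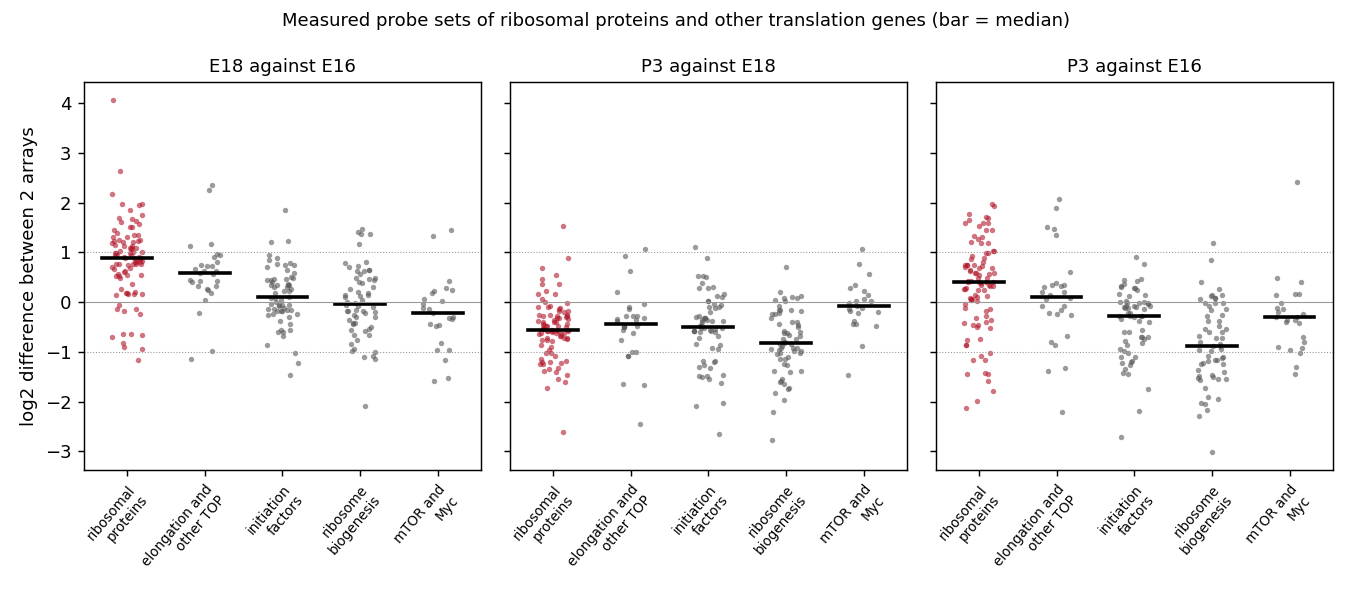
log2 differences of the measured probe sets of ribosomal proteins and of 4 lists of other genes of protein synthesis (points, bar at the median) for the 3 pairs of arrays; dotted lines mark 2-fold. At P3 against E16 the medians are 0.40 for ribosomal proteins (0.76 under quantile normalization), 0.11 for elongation and other oligopyrimidine-tract mRNAs (0.46 under quantile normalization), -0.27 for initiation factors (0.05 under quantile normalization), -0.87 for ribosome biogenesis (-0.64) and -0.30 for mTOR and Myc (-0.14).

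At E18 against E16 and at P3 against E16, initiation factors had medians between those of ribosomal proteins and biogenesis factors. Their median at E18 against E16 was 0.10 (3 of 64 higher, 3 lower). At P3 against E18 it was -0.50 (1 higher, 15 lower), above the -0.55 of ribosomal proteins and the -0.83 of biogenesis factors, and -0.12 under quantile normalization. At P3 against E16 it was -0.27 (0 higher, 13 lower), and 0.05 under quantile normalization. Over all probe sets 7.65% were higher and 7.95% lower in the first pair, 3.74% and 10.5% in the second, and 6.03% and 14.4% in the third. Eif3m, a subunit of the complex that loads the small subunit on mRNA, had ratios of 0.605, 2.80 and 1 on 1437189_x_at, with E16 below the floor. Eif4g2, an initiation scaffold that lacks the binding site for Eif4e, had 1.51, 0.545 and 1 on 1428362_at. Eif1ax, which takes part in scanning, had 1.60, 1 and 0.244 on 1449576_at, and Eif5b, which joins the subunits, had 1, 0.879 and 1.88 on 1434605_at. On 1434604_at Eif5b had 1.83, 1 and 0.760, so its probe sets pointed in opposite directions at P3.

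The regulators of translation in the mTOR and Myc list had medians of -0.21 at E18 against E16 (2 of 25 higher, 3 lower), -0.07 at P3 against E18 (0.14 under quantile normalization) and -0.30 at P3 against E16 (1 of 25 higher, 3 lower; -0.14 under quantile normalization). The counts at E18 against E16 are 8% and 12%, near the 7.65% and 7.95% over all probe sets. Those at P3 against E16 are 4% and 12%, near 6.03% and 14.4%. At E18 against E16 the 4 lettered probe sets of this list had a median of 0.87 and the 21 with no letter -0.30. Larp1, which binds the oligopyrimidine tract, had ratios of 2.24, 1 and 0.902 on 1428244_at and was the highest at E16. Rictor, a part of the second mTOR complex, had 1.75, 0.585 and 1 on 1435698_at. Mycn had 1.94, 0.677 and 1 on 1417155_at, and Myc, on the only probe set measured, had 0.596, 3.50 and 1 with E16 and P3 below the floor. Mxd4, a Max partner that opposes Myc, had 0.398, 1 and 2.11 on 1434378_a_at.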

How the data were processed

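Per the labels, 1 pool of dental papilla RNA per stage was hybridised to 1 array, 3 in all. The deposited values are ratios, most of them divided by the authors to a middle value of 1 per probe set, as the values show. GCOS is named per the submitters' processing notes, and its scaling is not given in the sources used here. The design had assumed signals, so the level of a probe set was taken, after the values had been seen, as the fewest whole steps that gave all 3 ratios within a relative 3e-07. The recovered level can be too low but not too high. For 1000 probe sets whose ratios were moved at random, the 5th percentile of the recovered level was 677. Many ribosomal probe sets lie above it, where a match can be chance and only the ratios should be read. Quantile normalization ranks these levels, so every value given under it carries the same limit.

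Values below the floor of 82.0 were set to it, and log2 differences were taken between arrays. Where a floored array enters, a fold is a lower bound. The steps were tested on simulated data. Members and lists were chosen with earlier results of these data known. In each comparison and class the text names at most the 6 highest and 6 lowest members past 2-fold, the 3 highest and lowest genes of the other class, genes with at least 3 differing probe sets, paralogues, common reference genes, and the 2 highest and lowest of each list; Rpl11, Rpl14, Rpl35, Rps15 and other probe sets of named genes were added after their values were seen. Gene symbols came from the platform annotation, and all 50 were current in RefSeq. Alternatives were other array scalings, floors, gene summaries, name classes and a 1.5-fold threshold; leaving _a_at out and counting several symbols in were added after the data were seen. Python 3.11.15, numpy 2.4.6, pandas 2.3.3 and matplotlib 3.10.9 were used. Columns of other samples numbered 0.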

Additional observations from a re-analysis of the deposited data

How the results depend on the processing

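No paired analysis was possible because each stage has 1 array and shares no replicate number beyond 1, and for the same reason no array could be left out. Of the recomputed class medians and within-gene differences, 68 kept their direction, though some changed size, and 4 reversed; of the recomputed counts, 91 stayed within 1.5 times and 47 did not; the cause was not tested unless the alternative changes which probe sets are counted. At E18 against E16, the other class (14 higher, 1 lower) had 4 higher with _a_at moved to the shared class or left out, 31 higher and 2 lower with several symbols, 30 higher and 7 lower at 1.5-fold, 2 lower with no floor, and 0 lower with a doubled floor or all 3 arrays above it. The _s_at and _x_at class (24 higher, 0 lower) had 13 and 12 higher by the median or the brightest probe set per gene, 47 with several symbols, and 1 lower with no floor or at 1.5-fold. The within-gene difference turned to -0.033 with the brightest probe set. At P3 against E18, quantile normalization gave the other class 8 lower, and the _s_at and _x_at class 2 higher, 0 lower and a reversed median of 0.0087. The other class (1 higher, 14 lower) had 22 lower with several symbols, 27 at 1.5-fold, and 0 higher with a doubled floor, all 3 arrays above it, or either gene summary. The _s_at and _x_at class (0 higher, 5 lower) had 1 lower by gene medians, 8 with _a_at joined, 12 lower and 1 higher with several symbols, 10 lower and 2 higher at 1.5-fold, and 1 higher with no floor. At P3 against E16, quantile normalization gave 15 higher in the other class and 21 higher and 1 lower in the _s_at and _x_at class. The other class (7 higher, 9 lower) had 3 higher by either gene summary and 5 lower by gene medians, 4 higher and a reversed median of -0.41 with _a_at joined to the shared class or left out, 19 higher and 15 lower with several symbols, and 16 higher at 1.5-fold. The _s_at and _x_at class (13 higher, 2 lower) had 6 higher and 0 lower by gene medians, 7 higher by the brightest, 21 with several symbols, and 21 higher and 4 lower at 1.5-fold. Of the recomputed values of named probe sets, 175 kept their direction within the SD between probe sets of 1 gene, 5 moved by more and 0 reversed; with a doubled floor Rps9 1426958_at was at -0.16 for E18 against E16, Rps3 1447563_at at 0.53 for P3 against E18 or E16, and Rpl7l1 1439780_at at -0.72 for P3 against E16. Weak signal limits the 10 members below the floor and the 8 below it on some arrays.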
